A study of Mus musculus with 17 samples.

Results

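The transcription factors that build and maintain the heart muscle lineage were followed in the left ventricular apex of mice after pressure overload: Gata4, Gata6, Tbx5, Tbx20, Nkx2-5, Hand2, Mef2a, Mef2c, Mef2d and Srf. These 10 genes were chosen by symbol, out of 21798 genes in the expression table, and all 10 passed the filter on low values that left 16218 genes for testing. Male C57Bl6/J mice, 7 to 8 weeks old at surgery, had transverse aortic constriction (TAC), in which the aortic arch is narrowed so that the left ventricle pumps against a raised pressure, or a Sham operation. From 1 week after surgery they received 6 oral gavages over 2 weeks of 29P, a drug directed at αvβ3 integrin, at 50 µg/kg, or the same volume of saline vehicle (Veh). Bulk RNA-sequencing at 3 weeks, with 1 library per mouse, gave 6 TAC 29P, 3 TAC Veh, 3 Sham 29P and 5 Sham Veh libraries. The p-values below measure the spread between mice together with that of dissection and library preparation, which 1 library per mouse cannot separate. No transgene or deletion was used, all groups were wild type, and a library is named here by the number its label carries (S5, S16).

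The GATA factors are zinc finger proteins, the T-box factors Tbx5 and Tbx20 bind DNA through a T-box domain, Nkx2-5 is a homeodomain protein and Hand2 a basic helix-loop-helix protein. MEF2A, MEF2C, MEF2D and SRF belong to the MADS-box class, in which SRF recognises the serum response element, or CArG box. In the embryo these factors bind together at enhancers of cardiac genes and several are needed for normal heart formation, and in the adult several of them, GATA4, MEF2 and SRF among them, are known to drive the fetal gene programme of the stressed ventricle, often through changes in the activity of the protein rather than the amount of its mRNA.

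Values are the deposited CPM (gene counts scaled to the same library total), and 3 properties of the libraries touch the members. First, the 16 genes encoded by mitochondrial DNA took 33.5% ± 3.64 (SD, n = 5) of the CPM in Sham Veh and 26.1% ± 2.22 (SD, n = 3) in TAC Veh, and the 16218 genes tested had a median log2 fold change of 0.35 in TAC Veh against Sham Veh and 0.37 in TAC 29P against Sham 29P. With TMM scaling, which sets libraries level on the bulk of their genes, both medians were 0.01, so a change in CPM is read here against those medians. When only the mitochondrial-encoded genes were left out of the totals, the 2 medians were 0.19 and 0.2. Second, S18 (TAC 29P), S19 and S20 (both Sham Veh) held transcripts of atrial muscle: the summed CPM of Myl4, Myl7, Sln and Bmp10 was 1529, 2543 and 2032 in them and at most 5.75 in the other libraries, with Sln and Bmp10 at 0 in all 3 TAC Veh libraries. The 3 libraries were not alike in all 4 genes: Bmp10 was at most 0.224 CPM in Sham Veh, S19 and S20 included, and 514 CPM in S18. The third property was that libraries deviated by the GC content of transcripts. Genes in the decile with the highest GC had a median log2 deviation from their own means of -0.99 in S14 (Sham 29P), -0.69 in S6 and -0.50 in S19 (both Sham Veh), against 0.50 in S11 (TAC 29P) and 0.49 in S2 (TAC Veh). The difference between the top and bottom GC deciles had a median over libraries of 0.27 in TAC Veh and 0.21 in TAC 29P, and of 0.08 in Sham Veh and -0.16 in Sham 29P. Depth estimated from the step between low values was 14.2 to 23.8 M reads per library, so a member's CPM stood for about 100 to 3579 reads. All 10 cardiomyocyte markers, Myh6 and Tnnt2 among them, averaged above 1 CPM in every group, so heart muscle was present in each. This low bar does not check the label of ventricular apex, and S18, S19 and S20 held atrial transcripts as well.

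In the vehicle-treated Sham ventricle all the members were expressed at moderate level. Per kilobase of annotated exon, which allows genes to be compared with each other, Mef2d (14 ± 3.75 CPM per kb, SD, n = 5) and Gata4 (13.7 ± 3.62) stood highest in Sham Veh. Hand2 (10.8 ± 4.73), Srf (10.4 ± 3.14), Mef2a (10.1 ± 1.02) and Nkx2-5 (9.86 ± 3.16) followed. Gata6 (5.43 ± 0.933), Tbx20 (5.09 ± 0.571), Tbx5 (4.50 ± 1.62) and Mef2c (3.59 ± 0.711 CPM per kb) were lowest. These levels exceeded those of 60.4% (Mef2c) to 86.5% (Mef2d) of 15890 genes with an annotated length. Only the step from Nkx2-5 down to Gata6 held in 5 of 5 Sham Veh libraries, with a mean difference of 0.81 on the log2 scale, and every other pair of neighbours in the order changed places in at least 2 of the 5. The 5 libraries include S19 and S20, which held atrial transcripts, and the order is that of all 5. Without S19 and S20 the mean CPM in Sham Veh was 19.5 rather than 25.4 for Hand2 and 15.5 rather than 21.0 for Tbx5. For Mef2c it was 64.0 rather than 56.4. Over all 17 libraries Gata4 (9.42 to 24.2 CPM per kb) lay wholly above its paralogue Gata6 (4.50 to 6.85), and Mef2d (9.60 to 23.3) and Mef2a (8.37 to 13.6) lay wholly above Mef2c (2.75 to 6.55). The length counts all annotated exons, 15.7 kb for Mef2c, 14.7 for Mef2a and 12 for Tbx20 against 1.72 to 6.51 kb for the others, and how much of it is used in this tissue was not tested.

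**Figure D1:**
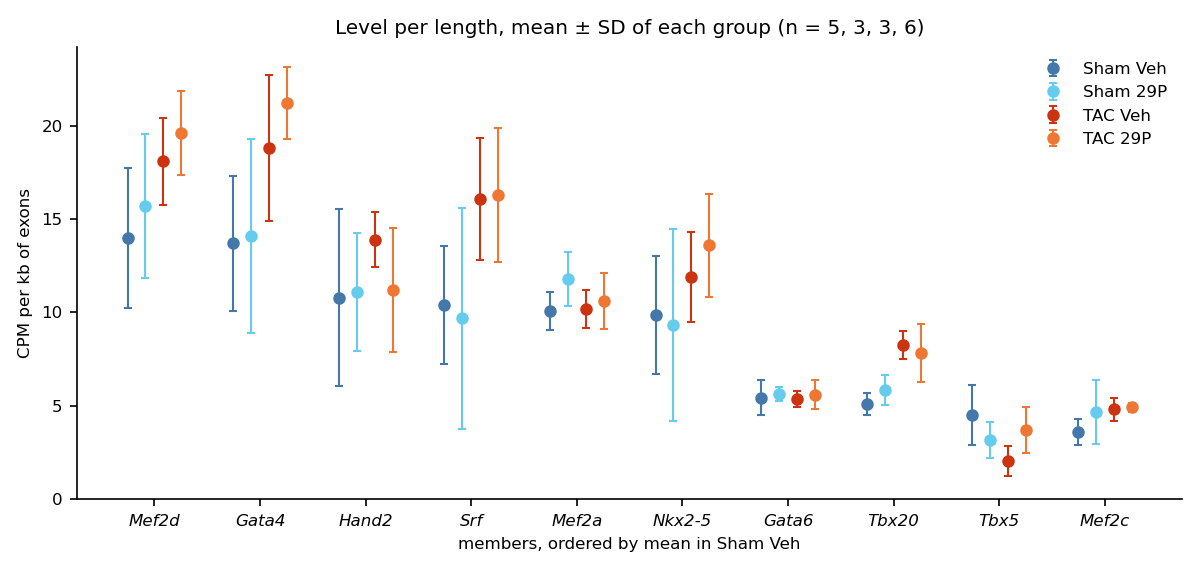
Level per length of the 10 members, in CPM per kilobase of annotated exon (vertical axis), ordered by the Sham Veh mean; points are group means and bars are SD (6 TAC 29P, 3 TAC Veh, 3 Sham 29P and 5 Sham Veh libraries). Mef2d and Gata4 lead at 14 and 13.7 in Sham Veh, and Tbx5 and Mef2c close the order at 4.50 and 3.59. The group values include S18 (TAC 29P), S19 and S20 (both Sham Veh), which held atrial transcripts.

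Paralogues shared short identical stretches. The longest one was 28 bases between transcripts of Mef2c and Mef2d, 18 between Gata4 and Gata6, 17 between Mef2a and Mef2c and 14 between Tbx5 and Tbx20. Exons of Hand2, Mef2d, Mef2a and Gata6 overlap a gene on the opposite strand (Hand2os1 by 461 bases, 1700113A16Rik by 531, Lysmd4 by 302 and 1010001N08Rik by 93). The study's methods list a strand specificity reagent for first-strand synthesis, but the strand setting of the counting is not given in the sources used here. Whether reads of the member and of its antisense partner were kept apart there is therefore not known.

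The first question was whether pressure overload alone, in vehicle-treated mice, changed the lineage factors. Tbx20 rose and Tbx5 fell in TAC Veh against Sham Veh, and the other 8 members did not pass an adjusted p of 0.05 (limma, Benjamini-Hochberg over 16218 genes). In numbers, 1 member of 10 was called higher, where 22.5% of all genes tested were, and 1 of 10 lower, where 1.91% were. At an unadjusted p of 0.05 the counts were 4 higher and 1 lower, beside 37.4% and 3.48% of genes. Without S18, S19 and S20, 2 members were higher and 0 lower (13.8% and 0.987% of genes), with TMM scaling 0 and 1 (4.01% and 5.51%), with centring by transcript GC 1 and 1 (5.63% and 7.60%), with both GC centring and without those libraries 1 and 1 (4.55% and 5.53%), and with 4 runs of libraries entered as a covariate 1 and 0 (19.2% and 1.28%). A run holds the libraries whose labels carry a 3-digit number of the same series, S1 to S11, S12 to S14, S15 and S16, and S18 to S20, and what the number stands for is not given in the labels. The median log2 fold change of the 10 members was 0.42, beside 0.35 for all genes. The members did not move as a block: Gata6 and Mef2a had log2 fold changes of 0.00 and 0.02 in CPM, and Srf, Gata4, Hand2, Mef2c and Mef2d lay between 0.41 and 0.68. A TAC Veh library had been left out by the study because it grouped with Sham libraries, so the 3 that remain were chosen in part by their expression.

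**Figure D2:**
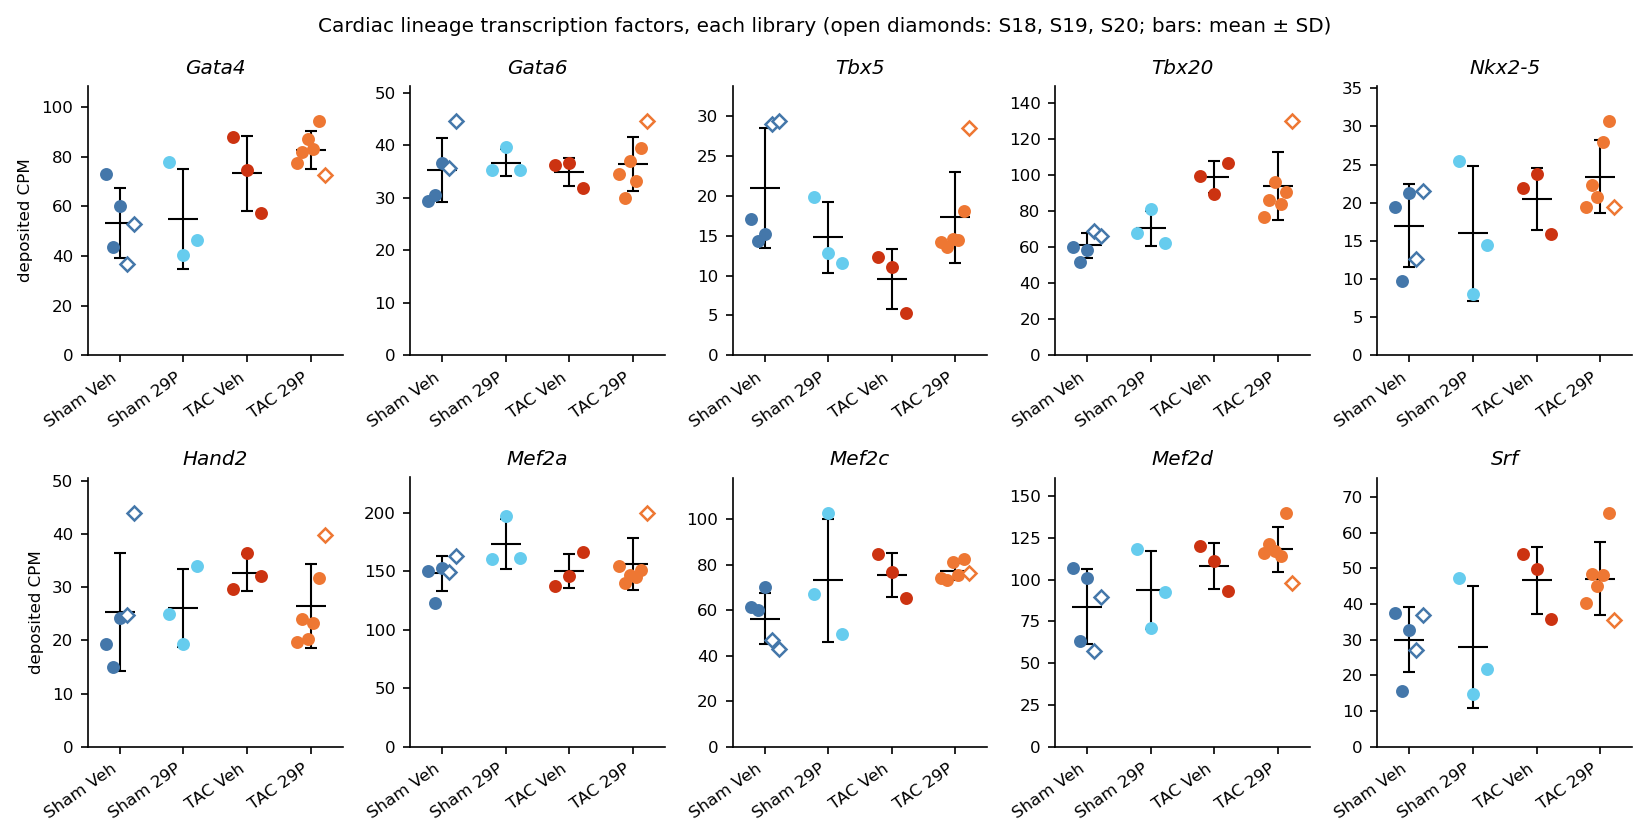
Deposited CPM of each member (vertical axis, from 0) in each of the 17 libraries by group; filled circles are single libraries, open diamonds are S18, S19 and S20, which hold atrial transcripts, and bars are mean ± SD. For Tbx20 the 3 TAC Veh libraries (89.8 to 107 CPM) all lie above the 5 Sham Veh libraries (51.7 to 69.1), and for Tbx5 they all lie below (5.33 to 12.3 against 14.4 to 29.4).

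Tbx20, a T-box factor required for chamber growth and for the upkeep of adult cardiomyocytes, is encoded on the minus strand of chromosome 9 (24718138 to 24774303, GRCm38). Its proximal promoter is shown because Tbx20 was the member called higher on deposited CPM in both comparisons of TAC with Sham. It is chr9:24774334-24774503, minus strand, GRCm38.p6 (RefSeq), from 200 to 31 bases before the start, and its GC content is 70%:
Tbx20: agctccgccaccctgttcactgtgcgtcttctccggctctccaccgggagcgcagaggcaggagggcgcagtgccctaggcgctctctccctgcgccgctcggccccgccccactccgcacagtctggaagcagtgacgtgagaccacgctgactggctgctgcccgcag
No base is in capitals because none of the 6 motifs searched occurred in it (AGATAA for GATA factors, AAGTG for NK2, AGGTGT for T-box, CANNTG for E-boxes, the MEF2 site and the CArG box, on both strands), which says only that these letters were not in the window. In CPM, Tbx20 was 60.1 in S5, 51.7 in S6, 58.4 in S13, 69.1 in S19 and 66.2 in S20 (Sham Veh), and 99.8 in S2, 89.8 in S12 and 107 in S16 (TAC Veh). The groups did not overlap, and the lowest TAC Veh library lay above the highest Sham Veh library. Groups as separate as this, in the higher direction, were seen for 27.6% of genes tested. The log2 fold change was 0.70 (SE 0.15, 95% confidence interval 0.39 to 1.01, adjusted p 0.00565 by limma). An exact two-sided permutation test gave p = 0.0357, the smallest this test can give with 3 against 5 libraries. Relative to the bulk of genes the increase was smaller, at 0.37 with TMM scaling (adjusted p 0.156 by limma), and it was 0.47 (adjusted p 0.0119) when each library was centred within 40 bins of transcript GC. It was 0.80 (adjusted p 0.00432) without S18, S19 and S20. Inside the run S1 to S11 TAC Veh was higher by 0.84 (1 against 2 libraries) and, in the run S12 to S14, by 0.62 (1 against 1). Within their own groups S19 and S20 were the highest Sham Veh libraries, with a mean 1.19 times that of the other 3, and S18, at 130 CPM, was 1.49 times the mean of the other 5 TAC 29P libraries (76.8 to 96.3). The part of atrial tissue in the Tbx20 values was not tested.

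Tbx5, the T-box factor whose loss causes Holt-Oram syndrome and an activator of conduction and contractile genes, moved the other way. It lies on the plus strand of chromosome 5 (119832668 to 119885219, GRCm38). Its CPM was 17.1 in S5, 14.4 in S6, 15.2 in S13, 29.1 in S19 and 29.4 in S20 (Sham Veh), against 12.3 in S2, 11.1 in S12 and 5.33 in S16 (TAC Veh). Every TAC Veh library was below every Sham Veh library, a separation seen in the lower direction for 2.23% of genes. The log2 fold change was -1.15 (SE 0.32, 95% confidence interval -1.82 to -0.48, adjusted p 0.0184 by limma, exact permutation p = 0.0357). Only 1.37% of genes had a more negative fold change. Against the bulk of genes the decrease was larger, -1.48 with TMM scaling (adjusted p 0.00524) and -1.5 with GC centring (adjusted p 0.00405 by limma).

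The size of the Tbx5 difference depended on single libraries. S19 and S20, with atrial transcripts, were 1.88 times as high in Tbx5 as the mean of the other 3 Sham Veh libraries, and S18 was 1.90 times as high as the mean of the other 5 TAC 29P libraries. The log2 fold change without S18, S19 and S20 was -0.78 (95% confidence interval -1.36 to -0.21), with an adjusted p of 0.0607 by limma that no longer passed. With GC centring as well as without these libraries it was -1.14 (adjusted p 0.00845 by limma). At the other end, S16 had 5.33 CPM, about 100 reads, with a 95% Poisson interval of 4.35 to 6.50 CPM for counting error only, so its distance from S12 (11.1 CPM) exceeded that error. Leaving out S16 gave -0.77, and the call was lost. Inside the 2 runs of libraries that hold both groups, the difference was -0.35 (1 against 2 libraries) and -0.45 (1 against 1). With the runs as a covariate it was -0.46 (adjusted p 0.0687 by limma). The run S18 to S20 is made up of the 3 libraries with atrial transcripts and holds no TAC Veh library. Run and atrial content therefore cannot be told apart for it. The direction was lower under each of these settings, and its size ran from -0.35 to -1.5. The part of atrial tissue in these values was not tested.

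**Figure D3:**
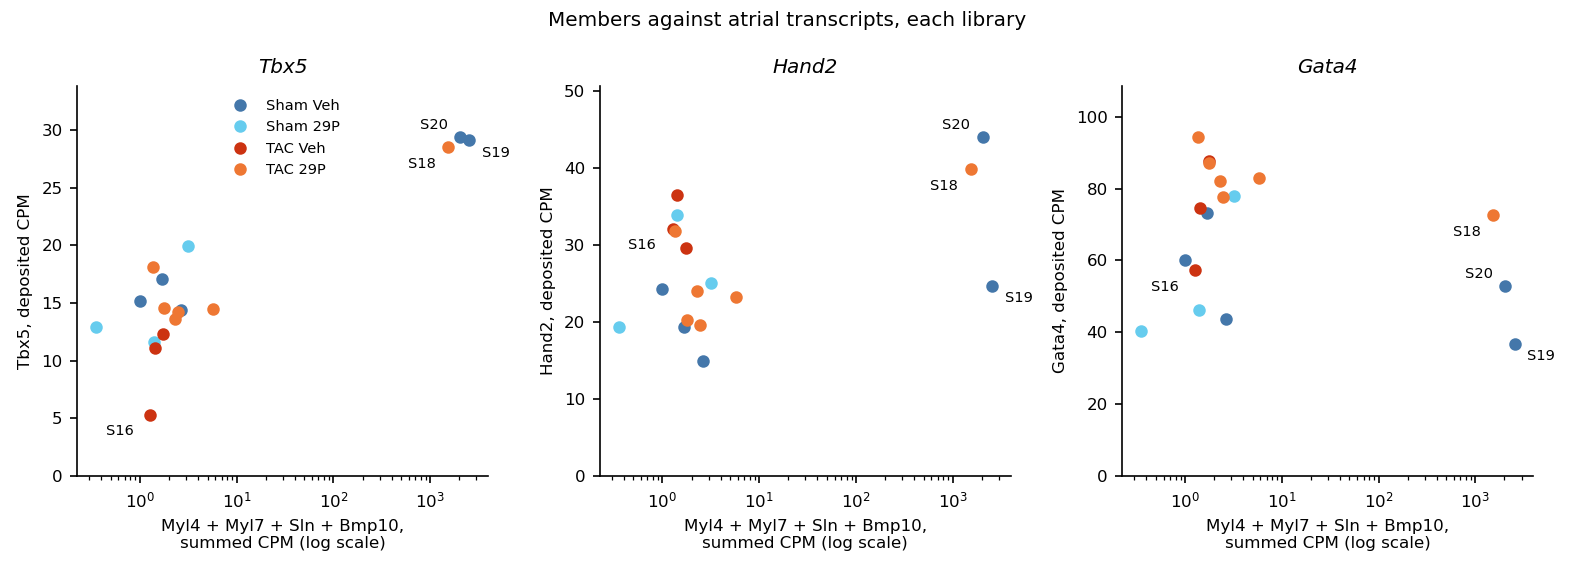
Deposited CPM of Tbx5, Hand2 and Gata4 (vertical axes, from 0) against the summed CPM of Myl4, Myl7, Sln and Bmp10 (horizontal axis, log scale), each point 1 library coloured by group. S18, S19 and S20, at 1529 to 2543 summed CPM, hold the 3 highest Tbx5 values (28.5 to 29.4 CPM), and S16 the lowest (5.33).

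Hand2, needed for growth of the right ventricle and for ventricular cardiomyocyte survival in the embryo, was also higher in the libraries with atrial transcripts, where the ratio to the mean of the other libraries was 1.77 in Sham Veh and 1.67 in TAC 29P. Its upstream promoter is shown because the letters of 2 lineage factor motifs occur in it, in capitals, both read on the other strand: an NK2 element (AAGTG) and a GATA element (AGATAA). They occur in 40.7% and 9.99% of 32851 promoters over the 250 bases before the start. The stretch also holds 2 E-boxes (CANNTG, in 66.2% of promoters), of which 1 overlaps the NK2 letters. The stretch is chr8:57320733-57320832, plus strand, GRCm38.p6 (RefSeq), from 250 to 151 bases before the start:
Hand2: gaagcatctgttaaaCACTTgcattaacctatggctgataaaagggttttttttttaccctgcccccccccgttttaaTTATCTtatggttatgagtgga
Hand2 was 19.3 CPM in S5, 14.9 in S6, 24.2 in S13, 24.7 in S19 and 44.0 in S20 (Sham Veh), and 29.6 in S2, 36.5 in S12 and 32.1 in S16 (TAC Veh). The groups overlapped only through S20, and the log2 fold change was 0.46 (SE 0.29, adjusted p 0.235 by limma). When S18, S19 and S20 were left out the groups no longer overlapped, as in the higher direction for 37.4% of genes (3.47% in the lower), and the fold change was 0.77 (95% confidence interval 0.29 to 1.26, adjusted p 0.0372), past the threshold. With GC centring and without those libraries it was 0.23 (adjusted p 0.505 by limma), and with GC centring alone -0.11. In TAC 29P, Hand2 ranged from 19.6 to 39.8 CPM with a median of 23.6, and S18 again was the highest.

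Srf, the MADS-box factor of immediate early and actin genes, had the widest spread after Tbx5. Its promoter is shown because the motif of SRF itself occurs in it: in capitals are 2 CArG boxes, CCATATAAGG from 82 to 73 and CCATAAAAGG from 62 to 53 bases before the start, and farther out an NK2 element, AAGTG. A CArG box occurs in 1.47% of the 32851 promoters. The stretch is chr17:46556193-46556332, minus strand, GRCm38.p6 (RefSeq), from 170 to 31 bases before the start:
Srf: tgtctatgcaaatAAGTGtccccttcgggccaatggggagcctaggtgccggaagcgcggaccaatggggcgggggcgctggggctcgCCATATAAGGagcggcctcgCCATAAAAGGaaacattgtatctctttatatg
Srf was 37.6 CPM in S5, 15.7 in S6, 32.7 in S13, 27.0 in S19 and 37.0 in S20 (Sham Veh), and 53.9 in S2, 49.9 in S12 and 35.9 in S16 (TAC Veh). S6 stood far below the other Sham Veh libraries, and S16 overlapped the upper Sham Veh values. The log2 fold change was 0.68 (SE 0.32, adjusted p 0.12 by limma), larger than that of 77.8% of genes. It was 0.35 with TMM scaling (adjusted p 0.425) and 0.14 with GC centring (adjusted p 0.518 by limma).

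Srf and Nkx2-5 were the members with the most GC-rich transcripts, 64.4% and 67.1%, above 99.6% and 99.9% of genes, and both followed the GC-dependent deviation of the libraries. In S14, Srf was 14.8 CPM and Nkx2-5 8.04, their lowest values of all, and in S11 they were 65.6 and 30.7, their highest. Gata4 (57.4% GC) was lowest in S19, S14 and S6 (36.8, 40.3 and 43.8 CPM) and highest in S11 (94.4). Mef2a (42.0% GC) and Mef2c (40.8%) went the other way in S14, at 197 and 103 CPM, among their highest values. They did not in S6 and S19, with log2 deviations from their own means of -0.33 and -0.05 for Mef2a and -0.19 and -0.54 for Mef2c. After GC centring the standard error of the TAC Veh difference shrank from 0.32 to 0.14 for Srf, from 0.32 to 0.12 for Nkx2-5 and from 0.22 to 0.12 for Gata4, but only from 0.32 to 0.30 for Tbx5 and from 0.29 to 0.28 for Hand2. For Gata6 it widened from 0.14 to 0.20.

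**Figure D4:**
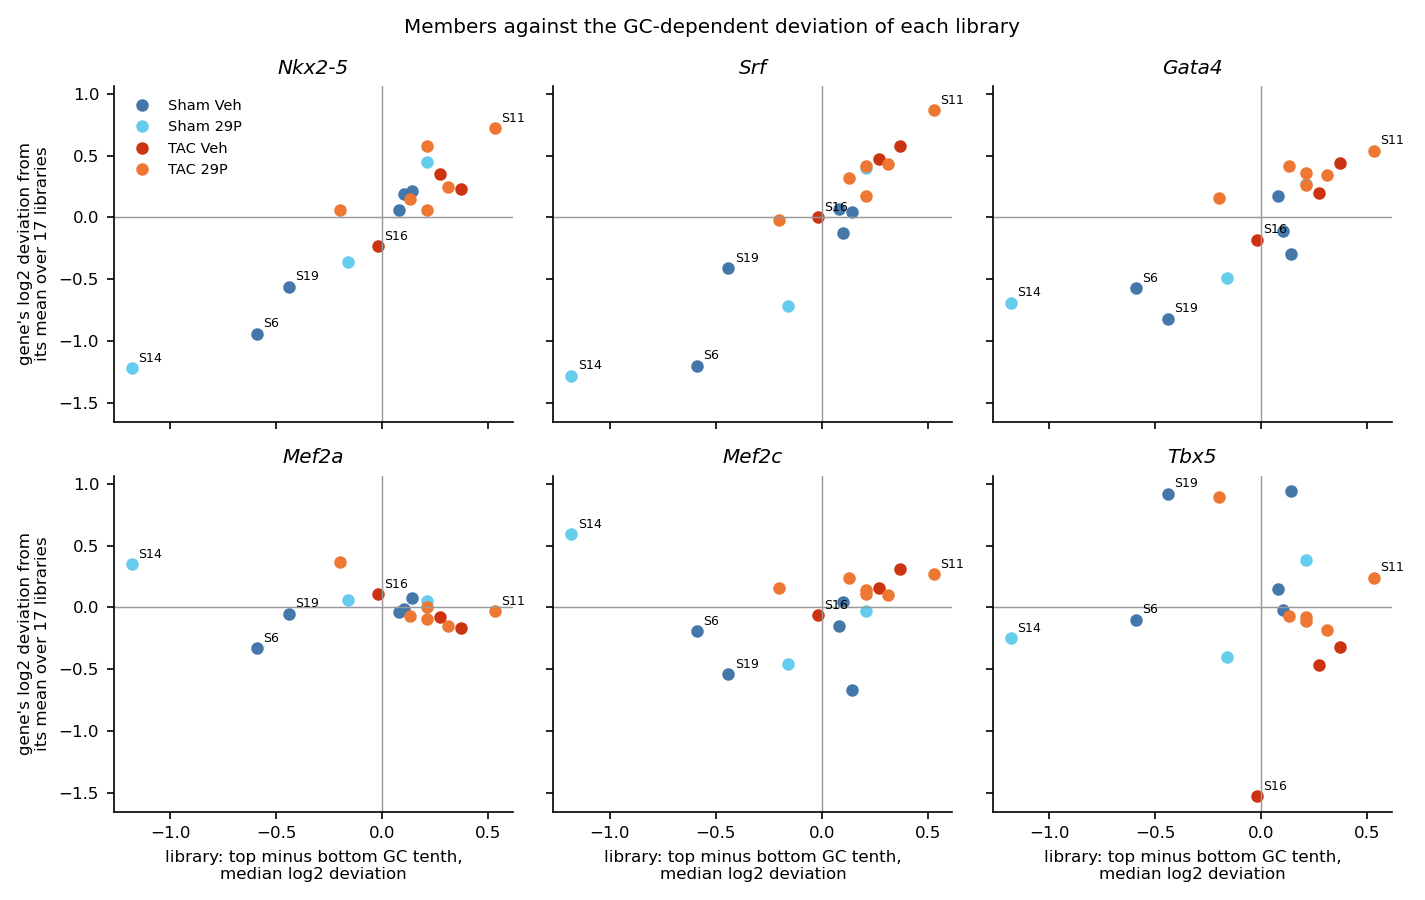
Log2 deviation of 6 members from their own mean over the 17 libraries (vertical axis) against the difference between the top and bottom GC deciles of genes in the same library (horizontal axis, median log2 deviation), each point 1 library coloured by group. Nkx2-5, Srf and Gata4 lie low in S14, S6 and S19 and high in S11, Mef2a and Mef2c are high in S14, and Tbx5 has its lowest point in S16, where the GC difference is -0.02.

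Nkx2-5, the homeodomain factor that marks the cardiac progenitor and a partner of Gata4 and Tbx5, was 9.71 to 21.6 CPM in Sham Veh (median 19.4), and 21.9 in S2, 23.8 in S12 and 15.9 in S16 (TAC Veh). The log2 fold change was 0.32 (SE 0.32, adjusted p 0.448 by limma) and was -0.01 with TMM scaling and -0.21 with GC centring. Gata4, the zinc finger factor of the hypertrophic response, was 36.8 to 73.1 CPM in Sham Veh (median 52.8) and 87.8 in S2, 74.6 in S12 and 57.4 in S16, so that the groups overlapped. Its log2 fold change of 0.48 (SE 0.22, adjusted p 0.105) became 0.15 with TMM scaling and -0.06 with GC centring. Gata6, its paralogue, was 29.3 to 44.6 CPM in Sham Veh and 31.8 to 36.6 in TAC Veh, with a difference of 0.00 (SE 0.14) in CPM, which was 0.12 without S18, S19 and S20 and is -0.34 relative to the bulk of genes (TMM scaling, 95% confidence interval -0.65 to -0.02, adjusted p 0.166 by limma).

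The MEF2 factors act downstream of calcineurin and are held back by class II histone deacetylases. Mef2c was 43.2 to 70.4 CPM in Sham Veh and 84.7 in S2, 76.8 in S12 and 65.6 in S16 (log2 fold change 0.44, SE 0.19, adjusted p 0.0878 by limma). Its 2 lowest values were those of S20 and S19. The Mef2c difference was 0.11 with TMM scaling, 0.24 with GC centring, 0.24 when S18, S19 and S20 were left out and 0.04 with both of the last changes. Mef2d went from 57.4 to 107 CPM in Sham Veh to 93.0 to 120 in TAC Veh (0.41, SE 0.20, adjusted p 0.129), a difference of 0.07 with TMM scaling and -0.02 with GC centring. Mef2a stayed at 123 to 163 and 137 to 166 CPM (0.02, SE 0.12, adjusted p 0.907), and at -0.31 relative to the bulk of genes with TMM scaling (adjusted p 0.177), where the 3 TAC Veh libraries all lay below the Sham Veh libraries, as 9.59% of genes did (8.64% lay all above).

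**Figure D5:**
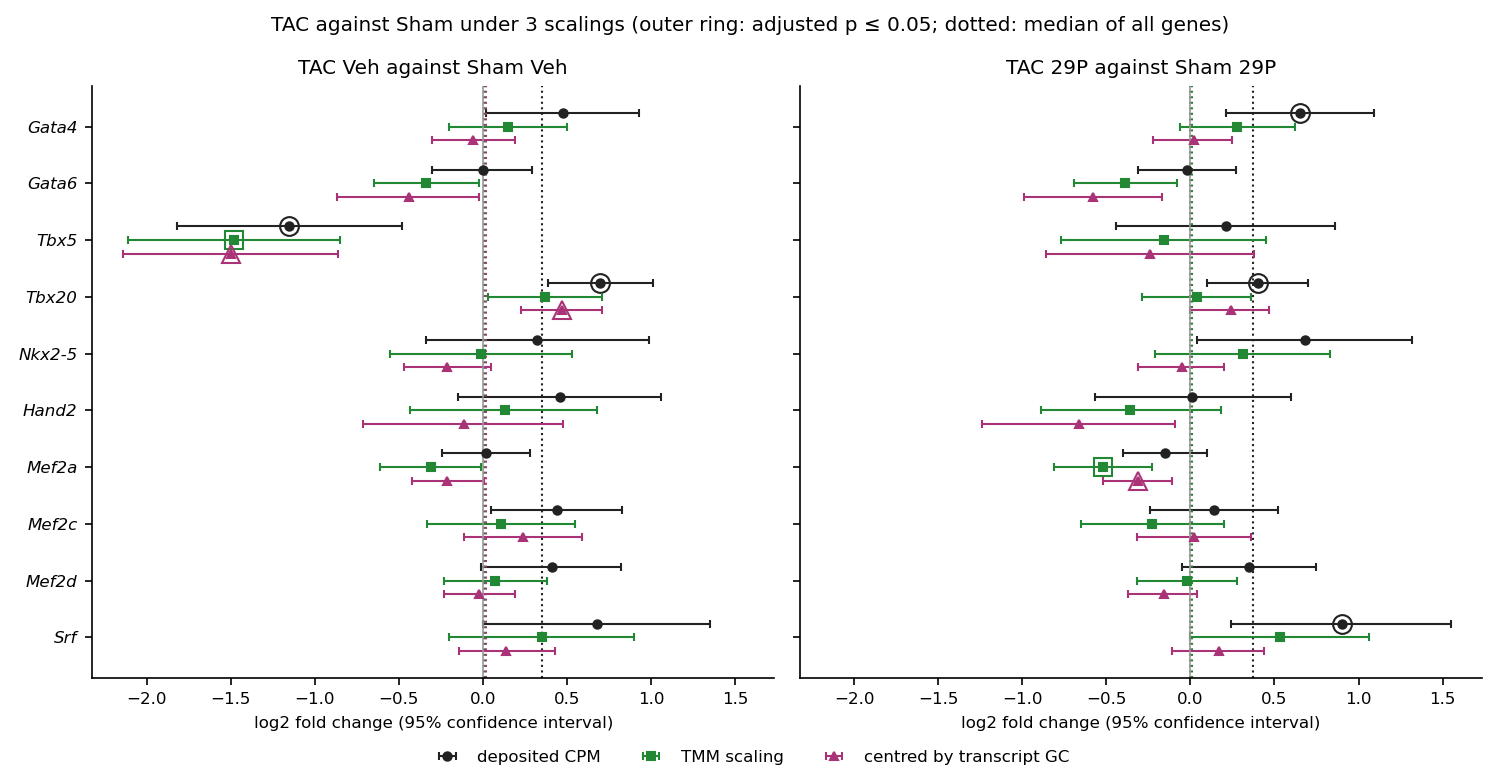
Log2 fold change with its 95% confidence interval (horizontal axis) of each member in TAC Veh against Sham Veh (left) and TAC 29P against Sham 29P (right) on deposited CPM, with TMM scaling and with centring by transcript GC; an outer ring marks an adjusted p of at most 0.05 and dotted lines the median of all genes. Tbx5 is called lower at left under the 3 scalings (-1.15, -1.48 and -1.5), whereas the calls for Gata4 and Srf at right (0.65 and 0.90) are present on deposited CPM and absent under the other 2.

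Summed levels of marker lists of other cell types are given beside these results as values, with no test. Between Sham and TAC the fibroblast and macrophage sums did not overlap with either treatment, the endothelial sums overlapped with both, the mural and red cell sums with 1 of the 2 and the mesothelial sums with both. The fibroblast list (8 of 8 genes detected, none at 0) summed to 1354 to 2501 CPM in Sham Veh and 2642 to 3563 in TAC Veh, and to 1102 to 1727 in Sham 29P and 1932 to 3822 in TAC 29P. In the same order the endothelial list (6 of 6) summed to 556 to 941 and 920 to 1184 CPM, and to 472 to 869 and 804 to 1173. The mural list (6 of 6) summed to 900 to 1259 and 1184 to 1630, and to 930 to 1175 and 1225 to 1439. The macrophage list (6 of 6) summed to 273 to 317 and 403 to 626, and to 187 to 356 and 393 to 514. The cardiomyocyte list (10 of 10) overlapped, at 42071 to 54022 and 40391 to 46166 CPM, and at 41171 to 56435 and 42010 to 51620. The part of these cell types in the member differences was not tested, and in bulk tissue fewer cells of a type and less RNA per cell cannot be told apart. Red cell and mesothelial lists (4 genes each) summed to 1009 to 2438 and 3.98 to 13.3 CPM in Sham Veh and to 3052 to 4933 and 3.86 to 11.8 in TAC Veh. With 29P they summed to 555 to 1663 and 4.24 to 7.57 CPM in Sham 29P and to 1027 to 4118 and 4.23 to 8.68 in TAC 29P.

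Pressure overload under 29P was compared separately, and this comparison shares no library with the one above. On deposited CPM, Gata4, Srf and Tbx20 were called higher in TAC 29P against Sham 29P. These 3 of 10 members were near the share of all genes called higher, 31.4%. None of the 10 was called lower, where 1.12% of genes were (limma, adjusted p of 0.05). At an unadjusted p of 0.05 there were 4 higher and 0 lower, beside 43.5% and 1.96% of genes. Without S18, S19 and S20 the counts were 3 and 0 (31% and 1.42% of genes), with TMM scaling 0 and 1 (5.62% and 5.22%), with GC centring 0 and 1 (5.66% and 5.95%), with GC centring and without those libraries 0 and 3 (6.28% and 5.92%), and with runs as a covariate 0 and 0 (4.19% and 0.166%). In no member did the groups separate fully, as 25% of genes did in the higher and 1.08% in the lower direction. The median log2 fold change was 0.28 for the members and 0.37 for all genes. Gata4 was 78.0 CPM in S4, 40.3 in S14 and 46.3 in S15 (Sham 29P) and 72.7 to 94.4 in TAC 29P (median 82.5). S4 alone reached the TAC 29P range. The log2 fold change was 0.65 (SE 0.21, adjusted p 0.0286 by limma, exact permutation p = 0.0714). Srf was 47.3 CPM in S4, 14.8 in S14 and 21.9 in S15, and 35.4 to 65.6 in TAC 29P (median 46.5), a log2 fold change of 0.90 (SE 0.31, adjusted p 0.037 by limma, exact permutation p = 0.0952). Again S4 lay inside the TAC 29P range. Inside the run that holds S4 and 5 TAC 29P libraries, the differences were 0.12 for Gata4 and 0.05 for Srf.

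Both calls were absent once libraries were centred by transcript GC, where Gata4 was 0.02 (95% confidence interval -0.22 to 0.25, adjusted p 0.935 by limma) and Srf 0.17 (-0.11 to 0.44, adjusted p 0.439). They were also lost with TMM scaling (0.28 and 0.53) and, with Tbx20, when S14, S15 or S11 was left out, the lowest values being those without S14 (0.46 and 0.52). Tbx20 was 67.8 CPM in S4, 81.1 in S14 and 62.4 in S15, and 76.8 to 130 in TAC 29P (median 88.3). Only S14 reached into the TAC 29P values. Its fold change was 0.40 (SE 0.14, adjusted p 0.0399 by limma, exact permutation p = 0.0476), larger than that of 53% of genes. It was 0.04 with TMM scaling and 0.24 (adjusted p 0.169 by limma) with GC centring. Without S18, S19 and S20 it was 0.31 (adjusted p 0.0491 by limma).

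None of the remaining members passed an adjusted p of 0.05 in CPM. Tbx5 was 19.9 in S4, 12.9 in S14 and 11.6 in S15, and 13.6 to 28.5 in TAC 29P (median 14.5), with a log2 fold change of 0.21 (SE 0.31, adjusted p 0.619 by limma). Nkx2-5 had 0.68 (SE 0.31, adjusted p 0.0924), Mef2d 0.35, Mef2c 0.14, Hand2 0.01, Gata6 -0.02 and Mef2a -0.15. Relative to the bulk of genes Mef2a fell, by 0.52 on the log2 scale with TMM scaling (adjusted p 0.0252 by limma) and by 0.31 with GC centring (adjusted p 0.0455). In CPM Mef2a was 160 in S4, 197 in S14 and 161 in S15, and 140 to 200 in TAC 29P, where S18 was the highest and the other 5 libraries lay between 140 and 154. With GC centring and without S18, S19 and S20, Hand2 (-0.84, adjusted p 0.0106) and Gata6 (-0.67, adjusted p 0.0355 by limma) were called lower besides Mef2a (-0.36, adjusted p 0.0231).

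The effect of 29P itself was asked within TAC and within Sham. In TAC 29P against TAC Veh no member passed an adjusted p of 0.05 in either direction (limma), and neither did any of 16218 genes, 0% in each direction. At an unadjusted p of 0.05, 1 of 10 members was higher, beside 1.05% of genes, and 0 lower, beside 0.931%. That member was Tbx5, at 14.2 CPM in S1, 13.6 in S3, 14.6 in S8, 14.5 in S9, 18.1 in S11 and 28.5 in S18 (TAC 29P) against 12.3, 11.1 and 5.33 (TAC Veh). All 6 TAC 29P libraries lay above the 3 TAC Veh libraries, as they did for 0.839% of genes (0.987% all below). The log2 difference was 0.89 (SE 0.31, 95% confidence interval 0.24 to 1.53, p = 0.0102 unadjusted and 1 adjusted by limma, exact permutation p = 0.0238). It was 0.73 without S18, S19 and S20 (unadjusted p 0.00844, adjusted p 1 by limma), 0.51 to 1.11 when single libraries were left out, and 0.35 with runs as a covariate. Inside the 1 run with both groups it was 0.28 (5 against 1 libraries). The TAC 29P and TAC Veh comparisons with Sham are not independent of this difference, since each uses the same TAC libraries.

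For the other 9 members the difference between TAC 29P and TAC Veh lay between -0.35 (Hand2, 95% confidence interval -0.94 to 0.24) and 0.19 (Gata4, -0.25 to 0.63, and Nkx2-5, -0.45 to 0.83). In CPM, Mef2a and Gata6 were bounded most closely, at 0.05 (-0.20 to 0.31) and 0.05 (-0.23 to 0.34), and Srf and Nkx2-5 least. The order differed with GC centring, where the standard error was 0.10 for Mef2a, 0.12 for Nkx2-5, 0.13 for Srf, 0.20 for Gata6 and 0.27 for Hand2. Gata4 was then 0.23 (95% confidence interval -0.01 to 0.47). Without S18, S19 and S20, Hand2 had -0.48 (95% confidence interval -0.91 to -0.04, unadjusted p 0.0329, adjusted p 1 by limma), so that 1 member was higher and 1 lower at an unadjusted p of 0.05, beside 1.24% and 1.84% of genes. With GC centring as well, 3 members were higher (Tbx5, Gata4 and Mef2d) and 1 lower (Hand2) at an unadjusted p of 0.05 by limma. Of 15680 genes, 409 were higher and 388 lower. The smallest adjusted p of a member was 0.848 by limma.

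In Sham 29P against Sham Veh no member passed either threshold (0 of 10 in each direction by limma, where 0% of genes were higher and 0.00617% lower, and 0 of 10 also at an unadjusted p of 0.05, where 1.60% and 5.89% were). None was fully separate between the groups, as 0.629% of genes were in the higher and 1.51% in the lower direction. The differences ran from -0.47 for Tbx5 (95% confidence interval -1.14 to 0.20) to 0.34 for Mef2c (-0.06 to 0.73). Without S18, S19 and S20 the Tbx5 difference was -0.11, and 2 members were higher at an unadjusted p of 0.05, beside 1.02% of genes (2.79% lower): Tbx20 at 0.31 (unadjusted p 0.0269) and Mef2a at 0.28 (unadjusted p 0.0315), both with an adjusted p of 0.914 by limma.

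Whether the TAC effect differed between 29P and vehicle was tested as an interaction, in which no member passed an adjusted p of 0.05 (limma, where 0.00617% of genes were higher and 0% lower). Tbx5 had the largest value, 1.36 (SE 0.44, unadjusted p 0.00674, adjusted p 0.998 by limma), the 1 member past an unadjusted p of 0.05, beside 1.98% of genes higher and 0.863% lower. It was 0.84 (unadjusted p 0.0351) without S18, S19 and S20 and 0.13 with runs as a covariate. Without those libraries Tbx20 (-0.50, unadjusted p 0.00981) and Hand2 (-0.89, unadjusted p 0.0107) were also past an unadjusted p of 0.05, both with an adjusted p of 0.962 by limma, where 1.80% of genes were higher and 1.89% lower. The other 9 members ranged from -0.45 (Hand2) to 0.36 (Nkx2-5). On deposited CPM, 40 exact permutation tests were made (10 members in 4 comparisons). The same tests were also made on values centred by transcript GC, and all these p-values are unadjusted. After centring, permutation p was below 0.05 for Tbx5 and Tbx20 in TAC Veh against Sham Veh (0.0357 each). It was also for Mef2a and Mef2d in TAC 29P against Sham 29P (0.0476 each). In TAC 29P against TAC Veh it was for Tbx5 and Gata4 (0.0238 each) and Mef2d (0.0476).

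Partners and cofactors of the lineage factors, a list of 32 genes, had 13 called higher and 1 lower in TAC Veh against Sham Veh (limma, adjusted p of 0.05), where 22.5% and 1.91% of all genes were. Their median log2 fold change was 0.47, and without S18, S19 and S20 the counts were 7 and 1 (13.8% and 0.987% of genes). Under 29P they were 12 and 1 (31.4% and 1.12%). Among those higher, Mrtfa, the actin-regulated coactivator of SRF, had 1.18 (4.76 ± 1.71 CPM, SD, n = 5, to 10.2 ± 0.999, n = 3, adjusted p 0.0163). Elk3, an ETS partner of SRF, had 0.82 (adjusted p 0.0137), Nfatc4, the calcineurin-dependent partner of GATA4, 0.89 (adjusted p 0.033), Hdac7, a class II deacetylase that holds MEF2 back, 0.87 (adjusted p 0.0265), and Tead1, a YAP-dependent factor of muscle genes, 0.63 (adjusted p 0.0136 by limma). With TMM scaling 1 partner was higher, Mrtfa (0.85, adjusted p 0.0468), and 1 lower, beside 4.01% and 5.51% of genes. Hopx, a homeodomain-only protein that restrains SRF, was the 1 called lower: 185 ± 16.8 CPM (SD, n = 5) in Sham Veh, 94.0 ± 20.9 (n = 3) in TAC Veh, 187 ± 15.5 (n = 3) in Sham 29P and 123 ± 18.5 (n = 6) in TAC 29P. Its log2 fold change was -1.0 (adjusted p 0.00105) under vehicle and -0.62 (adjusted p 0.00727 by limma) under 29P, and -1.27 and -0.87 with GC centring.

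Target genes of these factors, as known from textbooks, moved in both directions. Of 38 tested, 7 were called higher and 2 lower in TAC Veh against Sham Veh (22.5% and 1.91% of all genes), with a median of 0.07 beside 0.35 for all genes, and without S18, S19 and S20 the counts were 6 and 1 (13.8% and 0.987%). With TMM scaling 5 were higher and 8 lower (4.01% and 5.51%). The higher ones were led by Myh7, the fetal β-myosin heavy chain, from 136 ± 35.1 CPM (SD, n = 5) to 2345 ± 842 (n = 3), a log2 fold change of 4.08 (adjusted p 1.04e-05 by limma). Acta1, skeletal α-actin, had 3.72 (adjusted p 7.25e-05), Ankrd1, a stretch-induced repeat protein, 1.97 (adjusted p 0.000212), Nppb, brain natriuretic peptide, 1.81 (adjusted p 0.00101), and Ccn1, a matricellular protein, 1.07 (adjusted p 0.0294 by limma). The Ccn1 call was lost with TMM scaling (0.74, adjusted p 0.151), with GC centring (0.70, adjusted p 0.176) and without S18, S19 and S20 (0.64, adjusted p 0.117 by limma). Nppa, atrial natriuretic peptide, had 2.07 with an adjusted p of 0.0794, and 3.64 (adjusted p 0.00117 by limma) without S18, S19 and S20. The 2 lower ones were Corin, the protease that activates the natriuretic peptide precursor (-0.59, adjusted p 0.0224), and Tnni3, adult troponin I (-0.54, adjusted p 0.0155). Under 29P, 10 were higher and 2 lower (31.4% and 1.12% of genes), with Myh7 at 3.55 and Corin at -0.55, while Tnni3 had -0.12 (adjusted p 0.526 by limma) in CPM and -0.48 with TMM scaling (adjusted p 0.0344).

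Of 21 family relatives that were tested, 3 were called higher and 0 lower in TAC Veh against Sham Veh (limma, adjusted p of 0.05), where 22.5% and 1.91% of all genes were. At an unadjusted p of 0.05 the counts were 7 and 0, beside 37.4% and 3.48%. With S18, S19 and S20 left out, 1 of 19 was higher and 0 lower, beside 13.8% and 0.987%. Tbx15, a T-box gene of mesenchymal tissue, went from 0.876 ± 0.286 CPM (SD, n = 5) to 5.27 ± 2.49 (n = 3), a log2 fold change of 2.56 (adjusted p 0.00181), and from 0.515 ± 0.351 (n = 3) to 4.29 ± 0.88 (n = 6) under 29P (3.31, adjusted p 0.000578). Both calls held with TMM scaling (2.23 and 2.95) and with GC centring (2.26 and 3.00). Tbx2, a T-box repressor, had 0.90 (adjusted p 0.0483) and Heyl, a Notch-induced repressor, 0.89 (adjusted p 0.0184 by limma). With TMM scaling Tbx2 and Heyl had 0.57 (adjusted p 0.181) and 0.55 (adjusted p 0.0679). With GC centring they had 0.37 (adjusted p 0.118) and 0.45 (adjusted p 0.0361 by limma). Under 29P, 5 relatives were called higher and 0 lower (31.4% and 1.12% of genes), and also 5 and 0 with TMM scaling (5.62% and 5.22%). Tbx2 had 1.27 (adjusted p 0.00944) and Heyl 1.02 (adjusted p 0.00756 by limma) there, and both calls held with TMM scaling and with GC centring.

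The gene whose course over the 17 libraries lay closest to each member was found among 14053 genes with a mean of at least 1 CPM, by the root mean square (RMS) difference of log2 CPM after centring each gene on its own mean. These likenesses are descriptions, since all genes share library, depth and base composition. For the GC-rich members the closest genes were GC-rich too: Map3k10 (64.9% GC) for Srf at an RMS difference of 0.145 and Tfeb (63.2%) for Nkx2-5 at 0.134, and among the members Srf and Nkx2-5 were each other's closest, at 0.200. Gata4 was closest to Ccdc9b (0.116) and, among members, to Mef2d (0.149). Mef2a lay closest to Ythdf3 (0.0802), Mef2d to Zmynd8 (0.0871), Gata6 to Ank3 (0.107), Mef2c to Cnot6l (0.114), Tbx20 to Ccdc88a (0.114) and Hand2 to Pdxk (0.198). Tbx5 had the most distant neighbour of the 10, Kcnj5, a subunit of the acetylcholine-activated potassium channel, at 0.299. Kcnj5 averaged 37.8 ± 15.8 CPM (SD, n = 3) in TAC Veh and 54.4 ± 13.3 (n = 6) in TAC 29P, against 60.5 ± 14.9 (n = 5) in Sham Veh and 54.5 ± 6.02 (n = 3) in Sham 29P.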

How the data were processed

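RNA from the left ventricular apex was poly(A)-selected and sequenced. Per the labels and the study's methods, the authors used Partek Flow for alignment (STAR 2.3.7, build mm10, annotation release given as 25) and deposited CPM values, with 0.0001 added, in 1 table; counting tool and strand setting are not given in the sources used here. Of 20 libraries prepared, the authors removed 2 for depth and 1 TAC Veh library after principal component analysis. No 2 libraries held the same values. Of low values, 83.6 to 85.8% were whole multiples (within 0.05) of a step, so counts were not restored.

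Genes with CPM of at least 0.5 in at least 3 libraries (16218) were kept, and limma 3.58.1 (R 4.3.3, trend) was fitted to log2 of the deposited CPM of all 17 libraries, with 1 mean per group and Benjamini-Hochberg adjustment over all genes. TMM and median-of-ratios factors were computed from the CPM. GC and length came from Gencode vM21 transcripts (15890 genes). Promoters came from RefSeq, where 7 of the 10 members had an entry used. Exact permutations used scipy 1.17.1. The fit was tested on simulated data. In alternatives, 4 runs of libraries, set by the series of the 3-digit number in the labels, served as a covariate, S18, S19 and S20 were left out, or log2 CPM was centred within 40 bins of transcript GC; the last 2 were chosen after the data were seen. Members, lists and tests were chosen with earlier results of these data known. Genes named from the lists were the up to 5 higher and 5 lower with the largest fold change in TAC Veh against Sham Veh past the threshold, with Nppa, Nppb and Myh7 as stress markers; for each member the 1 closest gene was named.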

Additional observations from a re-analysis of the deposited data

Results flagged for a closer look

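One value of a member stood apart from its group by Dixon's gap test at the 95% level, among 20 combinations of member and group with 5 or 6 libraries, of which chance alone gives about 1 in 20. Mef2a was 200 CPM in S18 of TAC 29P, where the other 5 libraries lay between 140 and 154 CPM, and the gap was 0.72 of the range on the log2 scale. On the CPM scale, tried after the data were seen, the gap was 0.76 for Mef2a, and S18 also stood apart for Tbx5 (28.5 CPM against 13.6 to 18.1, a gap of 0.70) and Tbx20 (130 CPM against 76.8 to 96.3, a gap of 0.63), with the limit for 6 libraries at 0.625. S18 is also the TAC 29P library with atrial transcripts (1529 summed CPM of Myl4, Myl7, Sln and Bmp10), and its highest GC decile lay 0.20 below its lowest on the log2 scale. Their part in the Mef2a value was not tested.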

How the results depend on the processing

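No paired analysis was possible because library numbers are unique to 1 mouse each and no number is shared between groups. Of the single-member differences under the settings other than leaving out 1 library, 609 kept their direction and side of the threshold, 12 passed it newly, 26 no longer passed and 53 changed sign; the cause of the changes was not tested. In TAC Veh against Sham Veh, the count of members higher (1) became 0 with TMM scaling or median-of-ratios scaling, 2 without S18, S19 and S20 and 4 at an unadjusted p of 0.05, and the count lower (1) became 0 with runs as a covariate, without libraries over the atrial limit (which also leaves out S9) and without S18, S19 and S20. In TAC 29P against Sham 29P, the count higher (3) became 0 with TMM, median-of-ratios, totals without mitochondrial-encoded genes, runs, GC centring, and GC centring without S18, S19 and S20, and 1 without libraries over the atrial limit, and the count lower (0) became 1 with TMM, median-of-ratios and GC centring and 3 with GC centring without those libraries. At an unadjusted p, 1 member was higher in TAC 29P against TAC Veh and 1 in the interaction.

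These log2 differences changed sign. In TAC Veh against Sham Veh, Gata6 (0.00 on deposited CPM, so that its sign is not defined) ran from -0.44 with GC centring to 0.14 with runs. Mef2a had -0.31 with TMM, -0.30 with median-of-ratios, -0.13 without mitochondrial-encoded genes, -0.21 with GC centring and -0.15 with GC centring without S18, S19 and S20. Under the last pair of settings Nkx2-5 had -0.21 and -0.21 (TMM -0.01), Gata4 -0.06 and -0.20, Mef2d -0.02 and -0.14, and Hand2 -0.11 with GC centring. In TAC 29P against Sham 29P, TMM and median-of-ratios gave Mef2c -0.23 and -0.22, Mef2d -0.02 and -0.01, Tbx5 -0.16 and -0.15 and Hand2 -0.36 and -0.35, and totals without mitochondrial-encoded genes gave Mef2c -0.04 and Hand2 -0.17. GC centring, with all libraries and without the 3, gave Mef2d -0.16 and -0.15, Nkx2-5 -0.05 and -0.04, Tbx5 -0.24 and -0.39 and Hand2 -0.66 and -0.84. Runs gave Tbx5 -0.33, the atrial limit Hand2 -0.11 and leaving out the 3 libraries Hand2 -0.12. In TAC 29P against TAC Veh, runs gave Gata4 -0.02 and Srf -0.31, the atrial limit Mef2a -0.02, and leaving out the 3 libraries Mef2a -0.02 and Gata6 -0.01. GC centring without the 3 libraries also gave Gata6 -0.01. In Sham 29P against Sham Veh, Tbx5 had 0.22 with runs and 0.01 with GC centring without the 3 libraries, Gata4 -0.13 under both atrial exclusions, Nkx2-5 0.03 and 0.02 under the GC settings and Srf 0.06 under the second of them. In the interaction, runs gave Gata4 -0.11 and Srf -0.31, GC centring without the 3 libraries Srf -0.02 and Mef2c 0.02, and the atrial limit and leaving out the 3 libraries Mef2d 0.14 and 0.11.

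Leaving out 1 library at a time gave 1 to 2 members higher and 0 to 1 lower in TAC Veh against Sham Veh (0 lower without S16) and 0 to 3 higher in TAC 29P against Sham 29P (0 without S11, S14 or S15, 1 without S3). Ranges that crossed 0 were, in TAC Veh against Sham Veh, Gata6 -0.07 to 0.08 and Mef2a -0.06 to 0.08; in TAC 29P against Sham 29P, Gata6 -0.08 to 0.04, Hand2 -0.19 to 0.22 and Mef2c -0.11 to 0.41; in TAC 29P against TAC Veh, Gata6 -0.01 to 0.11, Mef2a -0.02 to 0.13, Mef2c -0.07 to 0.12 and Srf -0.16 to 0.13; in Sham 29P against Sham Veh, Gata4 -0.26 to 0.21, Hand2 -0.11 to 0.32, Nkx2-5 -0.58 to 0.25 and Srf -0.67 to 0.17; and in the interaction, Gata4 -0.02 to 0.45, Gata6 -0.10 to 0.05, Mef2d -0.24 to 0.12, Nkx2-5 -0.06 to 0.77 and Srf -0.16 to 0.68. Depth, estimated from the step of the low values, left at least about 100 reads behind each member value, fewest for Tbx5 in S16.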
